A study of Mus musculus with 4 samples.

Results

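Disease-associated microglia genes were followed in 4 mouse brain sections: the receptor gene Trem2, its adaptor Tyrobp, and Cst7, Cd68, Cd9, Cd52, Apoe, Lpl, Axl and Lgals3. They were taken by symbol and are 10 of the 19465 genes listed in the files, and each of the 10 had UMI in every section. A UMI (unique molecular identifier) marks 1 captured molecule, here assigned to a spot of a capture array that covers a few cells. The 2 sections labelled rNLS8 and the 2 labelled Control came from formalin-fixed brains at 11 weeks of age, 3 weeks after doxycycline (Dox) withdrawal in both groups. As background, Dox withdrawal in rNLS8 mice lets neurons make human TDP-43 that lacks a working nuclear import signal, under the NEFH promoter, so the transgene is driven in neurons and not in microglia. The labels give the Control mice no allele and name rNLS8 only as a genotype. The sections named 1 are labelled female and those named 2 male.

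Tardbp, the TDP-43 gene, had 197 and 138 UMI in rNLS8 sections 1 and 2 and 0 in both Control sections, where a count of 0 allows up to 3 counts. The probe set is not given in the sources used here, so which Tardbp transcripts these counts read is not known. The 0 therefore does not show that Control brains lacked TDP-43 RNA. Section totals lay between 17627577 and 28056089 UMI, and both extremes were rNLS8 sections. The section rNLS8 1 is labelled female but held 136.7 CPM of Y-linked genes, close to the 139.1 CPM of the male rNLS8 2, whereas the female Control 1 held 0. The male Control 2 held 107.3 CPM. If these counts give the sex, it was not balanced between the groups, and its part in the contrast cannot be told apart. The labels do not say in words that each section came from its own animal, so the p-values reflect the spread among 4 sections, which may be technical. Clustering of spots gave 801 and 874 cortical spots in rNLS8 and 980 and 747 in Control. Levels of a gene are in CPM, the rate of UMI per library after trimmed-mean scaling, with n = 2 sections per group. In a spot, more microglia and more RNA per microglial cell cannot be told apart. Changes are log2 folds of rNLS8 over Control with a standard error (SE) derived from the edgeR quasi-likelihood test. The call threshold was an adjusted p of 0.05 (Benjamini-Hochberg over all genes tested).

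As background, TREM2 is a surface receptor of microglia that binds lipids and lipoproteins, and it signals through the adaptor TYROBP (DAP12), which recruits the kinase SYK. Microglia around amyloid, dying neurons or damaged myelin lower their homeostatic genes and raise a set of genes for phagocytosis, lysosomes and lipid handling, and the later step of that change depends on TREM2. Cst7, Lpl, Cd9 and Axl are known as genes of the later step, Tyrobp and Apoe as genes that already change in the early one.

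The promoters of Trem2, of Cst7 and of Cd68 are shown because these genes had the clearest regional or spot-level patterns below. Each run is the 250 bases before the RefSeq start on GRCm38.p6, read 5′ to 3′ on the gene's strand, from chr17:48346151-48346400 (plus strand), chr2:150570165-150570414 (plus strand) and chr11:69666171-69666420 (minus strand). Capitals mark GAGGAA, the core bound by the myeloid factor PU.1, and TGANTCA, searched on both strands. TGANTCA is a loose form of the AP-1 motif, which has G or C at N.
Trem2: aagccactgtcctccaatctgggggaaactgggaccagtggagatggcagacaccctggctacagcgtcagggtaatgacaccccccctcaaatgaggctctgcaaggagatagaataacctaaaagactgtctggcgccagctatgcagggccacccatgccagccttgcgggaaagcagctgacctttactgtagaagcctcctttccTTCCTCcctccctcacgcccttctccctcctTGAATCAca
Cst7: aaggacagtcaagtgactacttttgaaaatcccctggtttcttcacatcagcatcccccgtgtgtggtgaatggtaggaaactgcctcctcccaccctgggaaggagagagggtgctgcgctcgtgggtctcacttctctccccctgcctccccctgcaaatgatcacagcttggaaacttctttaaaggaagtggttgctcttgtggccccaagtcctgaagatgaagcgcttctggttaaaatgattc
Cd68: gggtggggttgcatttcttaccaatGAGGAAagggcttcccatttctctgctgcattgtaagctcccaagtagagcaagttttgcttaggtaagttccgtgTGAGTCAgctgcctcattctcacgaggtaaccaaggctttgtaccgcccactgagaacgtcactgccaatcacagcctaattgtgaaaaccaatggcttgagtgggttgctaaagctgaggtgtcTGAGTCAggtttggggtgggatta
The Trem2 window held 1 GAGGAA, written TTCCTC on this strand, and 1 TGANTCA with A at N, which is not the strict AP-1 motif. The Cd68 window held 1 GAGGAA and 2 TGANTCA, both with G at N, and the Cst7 window held neither. Of 9 promoter windows of 7 members, 5 held GAGGAA, 2 held TGANTCA and 0 held the E-box CACGTG. Of all 32851 RefSeq promoter windows, 23.3%, 6.7% and 6.0% held them, in the same order. The motifs do not overlap each other in these windows, and a match is a description of the letters only.

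In the cortex, 6 of the 10 genes were higher in rNLS8 than in Control: Trem2, Tyrobp, Cst7, Cd68, Cd9 and Cd52. Among all 12253 genes tested there, 0.473% were called higher and 0.628% lower. Trem2 stood at 32.5 and 49.9 CPM in rNLS8 1 and 2 and at 9.34 and 12.7 CPM in Control 1 and 2, a log2 fold of 1.90 (SE 0.273, adjusted p = 0.0435). Tyrobp, its adaptor, stood at 33.3 and 48.3 CPM in rNLS8 and at 7.11 and 11.5 CPM in Control, a log2 fold of 2.12 (SE 0.294, adjusted p = 0.0421). For both genes of the receptor complex the sections of the 2 groups lay far apart, and rNLS8 2 was the higher rNLS8 section.

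Cst7 encodes cystatin F, an inhibitor of lysosomal cysteine proteases. It was nearly absent from Control cortex, with 2 and 4 UMI there against 164 and 407 UMI in rNLS8. The levels were 17.5 and 49.8 CPM in rNLS8 and 0.296 and 0.517 CPM in Control, and the fitted log2 fold was 6.29 (SE 0.729, adjusted p = 0.0299). Pooled over sections, its UMI rate was 86.8 times as high in rNLS8 as in Control, with an exact 95% counting interval of 39.6 to 237 that leaves out spread between sections. The rNLS8 sections differed from each other more for Cst7 than for the other called members.

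Cd52, a small glycoprotein on the surface of leukocytes and microglia, stood at 24.9 and 38.0 CPM in rNLS8 and at 3.56 and 3.62 CPM in Control, a log2 fold of 3.12 (SE 0.295, adjusted p = 0.0282). Cd68, a membrane protein of lysosomes in phagocytes, stood at 31.0 and 46.0 CPM in rNLS8 and at 10.5 and 10.9 CPM in Control, a log2 fold of 1.84 (SE 0.241, adjusted p = 0.0372). Both genes had Control sections nearly equal to each other and rNLS8 sections well above them. Cd9, a tetraspanin that organises membrane proteins and is also made by oligodendrocytes, stood at 29.8 and 35.2 CPM in rNLS8 and at 12.7 and 15.3 CPM in Control, a log2 fold of 1.21 (SE 0.198, adjusted p = 0.0497). Its adjusted p lay just under the threshold.

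Apoe, Lpl, Axl and Lgals3 did not pass in the cortex. Apoe encodes apolipoprotein E, which astrocytes make in large amounts besides microglia. It stood at 1136 and 1169 CPM in rNLS8 and at 955 and 1125 CPM in Control (log2 fold 0.15, SE 0.148, edgeR adjusted p = 0.605). Lpl, lipoprotein lipase, stood at 16.7 and 18.6 CPM in rNLS8 and at 11.3 and 21.5 CPM in Control (0.10, SE 0.313, adjusted p = 0.881), and its groups overlapped. Axl, a receptor tyrosine kinase that helps clear dead cells, stood at 49.5 and 57.0 CPM in rNLS8 and at 38.8 and 38.3 CPM in Control (0.46, SE 0.156, adjusted p = 0.167). Lgals3, a secreted lectin of activated phagocytes, had 35 and 56 UMI in rNLS8 and 13 and 12 in Control (1.59, SE 0.446, adjusted p = 0.12). The sections of the 2 groups did not overlap for Apoe, Axl or Lgals3.

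**Figure D1:**
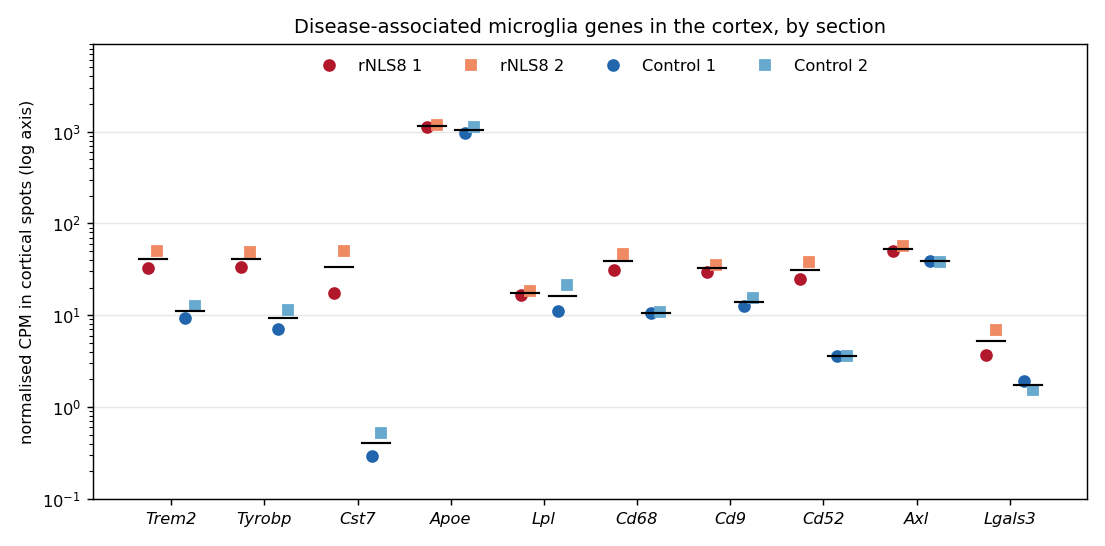
Normalised CPM of the 10 genes in cortical spots, on a log axis, with 1 point per section and a bar at each group's mean (rNLS8 left of Control for each gene). The rNLS8 sections lie above both Control sections for 9 of 10 genes, with the widest gap for Cst7 and an overlap for Lpl.

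Of the 10 members, 6 were called higher and 0 lower. The median log2 fold was 1.72 over the members and 0.02 over all genes tested. Both rNLS8 sections lay above both Control sections for 9 of 10 members, where this held for 28.7% of the genes tested. Leaving out rNLS8 2 left 2 members called, Cst7 and Cd52. With an unweighted neighbour graph in the clustering, 4 were called and Trem2 (adjusted p = 0.0519) and Cd9 (0.0551) were not. With library totals in place of trimmed-mean scaling none was called, with adjusted p between 0.0526 and 0.0745 for the 6 genes. That scaling moved the median log2 fold of all genes by 0.15 and called 3 genes in all.

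Marker lists of other cells were read in the same cortical sums. Sums of such lists in CPM, here and below, are over library totals without trimmed-mean scaling, unlike the CPM of single genes. The 12 homeostatic microglial genes, all detected, summed to 404 and 521 CPM in rNLS8 cortex and to 215 and 296 CPM in Control cortex. Of 11 tested, all had a fold above 0, 6 had an unadjusted p under 0.05, DESeq2 called 2 higher, and edgeR called 1 higher and 0 lower: Fcrls, an Fc receptor-like gene of microglia, at 8.32 and 11.4 CPM in rNLS8 and 2.07 and 1.94 CPM in Control (log2 fold 2.28, SE 0.334, adjusted p = 0.0436). The 8 markers of border macrophages summed to 13.01 and 13.23 CPM in rNLS8 and to 6.25 and 11.7 CPM in Control, and 0 of 3 tested were called by edgeR, at an unadjusted p under 0.05, or by DESeq2. The 10 markers of T and NK cells summed to 2 and 4 UMI in rNLS8 and 5 and 0 in Control, with Cd3g, Cd8a, Cd8b1, Nkg7, Gzma and Gzmb at 0 in all sections. The 7 markers in the files of monocytes and neutrophils summed to 7 and 22 UMI in rNLS8 and 3 and 3 in Control, with S100a8, Chil3, Ly6g and Retnlg at 0 in all. The 6 neuronal markers summed to 7750 and 7710 CPM in rNLS8 and to 11027 and 10333 CPM in Control, and Nefl, the light neurofilament, fell by 1.35 on the log2 scale (SE 0.154, adjusted p = 0.0297). The 9 astrocyte and 8 oligodendrocyte markers had 0 calls by edgeR with 2 each at an unadjusted p under 0.05, and the 4 of oligodendrocyte precursors and 9 of vessels had 0 by both measures. DESeq2 called 1 astrocyte marker and 0 of the other 3 lists. The part of these shifts in the members' values was not tested.

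Genes around the receptor complex were listed next. Of 14 listed genes of TREM2 signalling and processing, 13 were tested and 0 were called by edgeR, with 1 at an unadjusted p under 0.05 and 1 call by DESeq2. The lowest adjusted p was that of Pik3ap1, an adaptor that links surface receptors to PI3 kinase, at 5.55 and 8.92 CPM in rNLS8 and 1.48 and 1.42 CPM in Control (log2 fold 2.30, SE 0.405, adjusted p = 0.0566). Of 28 other genes of the disease-associated program, 26 are in the files, 21 were tested, 4 were called higher and 0 lower. B2m, which pairs with the class I heavy chain, stood at 384 and 473 CPM in rNLS8 and 41.8 and 75.1 CPM in Control (log2 fold 2.87, SE 0.287, adjusted p = 0.0282). Ctss, the cysteine protease cathepsin S of antigen-presenting cells, had a log2 fold of 1.92 (SE 0.258, adjusted p = 0.0389). Ctsd, the aspartic protease cathepsin D of lysosomes, had one of 1.70 (SE 0.182, adjusted p = 0.0297).

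Ctsz was the other of these 4, and some genes stand in more than 1 list. Of 9 listed cystatins and cysteine cathepsins, the relatives and targets of Cst7, 8 were tested, 2 were called higher (Ctss and Ctsz) and 1 lower. Ctsz, cathepsin Z, stood at 145 and 192 CPM in rNLS8 and 76.8 and 58.6 CPM in Control (log2 fold 1.31, SE 0.205, adjusted p = 0.0463). Cst6, cystatin E/M, stood at 8.85 and 9.90 CPM in rNLS8 and 23.1 and 23.7 CPM in Control (-1.32, SE 0.205, adjusted p = 0.0456). Of 5 galectins and galectin partners beside Lgals3, all were tested and 1 was called: Lgals3bp, a secreted binding partner of galectins, at 22.2 and 40.2 CPM in rNLS8 and 5.04 and 4.78 CPM in Control (2.66, SE 0.338, adjusted p = 0.0368). Of 17 lipid-handling genes, 14 were tested and 1 was called: Abca1, which exports cholesterol to apolipoproteins, at 37.9 and 39.8 CPM in rNLS8 and 18.7 and 18.5 CPM in Control (1.06, SE 0.162, adjusted p = 0.0436). Among 8 tetraspanins related to Cd9, edgeR called 0, with 5 at an unadjusted p under 0.05, and by DESeq2 1 was higher and 1 lower. The lowest adjusted p was that of Cd37, a leukocyte tetraspanin (log2 fold 1.35, SE 0.254, adjusted p = 0.0611). Among the 4 relatives and ligands of Axl, 0 were called by edgeR, at an unadjusted p under 0.05 or by DESeq2, and Pros1, a ligand of these receptors, had the lowest adjusted p (0.28, SE 0.215, adjusted p = 0.497).

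Outside the cortex, striatum, fibre tracts and meninges were tested. In the striatum, with 762 and 399 spots in rNLS8 and 763 and 712 in Control, most spots came from different clusters in the 2 groups: 1 cluster gave 703 and 356 spots in rNLS8 against 250 and 239 in Control, the other 59 and 43 against 513 and 473. There 0 of 10 members were called by edgeR and 0 of the 7 with an adjusted p by DESeq2, while 7 had an unadjusted p under 0.05. Of 12208 genes there, 0.205% were called higher. Both rNLS8 sections lay above both Control sections for 7 members, against 25.4% of genes, and in all spots outside the cortex also for 7, against 25%. Trem2 stood at 21.8 and 20.3 CPM in rNLS8 striatum and 11.8 and 14.4 CPM in Control striatum (log2 fold 0.68, SE 0.234, adjusted p = 0.243). Cd52 stood at 13.7 and 14.1 CPM in rNLS8 and 3.14 and 3.97 CPM in Control (1.95, SE 0.31, adjusted p = 0.0515), next to the threshold. Cst7 had 40 and 36 UMI in rNLS8 striatum and 0 and 3 in Control striatum, a pooled rate ratio of 31.2 (exact 95% counting interval 10.3 to 154). Leaving out Control 2, Control 1 or rNLS8 1 raised the count of calls. Such a fit keeps 1 section in a group, and the share of all genes called in it is not given here. Leiden resolutions of 0.5 and 1.5 called 1 and 2, so that the count of 0 depends on where the border was drawn.

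In fibre tracts, with 94 to 176 spots a section, 0 of 9 tested members were called by edgeR, with 7 at an unadjusted p under 0.05, and 0 of the 1 with an adjusted p by DESeq2. Of 9346 genes, 0.15% were called higher. Tyrobp stood at 55.5 and 61.6 CPM in rNLS8 and 7.83 and 28.5 CPM in Control (log2 fold 1.65, SE 0.387, adjusted p = 0.14), with Control 1 at only 5 UMI. Cst7 had 22 and 50 UMI in rNLS8 fibre tracts and 0 in both Control sections. Its pooled rNLS8 rate was 10.7 times the Control rate with the Control group set at 3 counts in all. This ratio leaves out counting error and spread between the rNLS8 sections. Cd9 stood at 115 and 105 CPM in rNLS8 and 61.1 and 69.9 CPM in Control, above its own cortical level in each section. Leaving out rNLS8 1, Control 1 or Control 2 also raised the count here, again without the share of all genes beside it. The single-precision neighbour graph used at first also gave calls in fibre tracts.

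In meningeal and surface spots, 1 of 9 tested members was called, against 0.0667% of 10495 genes called higher. It was Cst7, with 27 and 70 UMI in rNLS8 and 0 in both Control sections, at least 18.7-fold higher by the same bound (adjusted p = 0.0426). Border macrophage markers were there at 93.5 and 126 CPM in rNLS8 and 57.8 and 78.6 CPM in Control, and their part was not tested. DESeq2 called 0 of the 1 member with an adjusted p, and leaving out Control 1 called 0. Leaving out rNLS8 1 or Control 2 raised the count, with no share of all genes beside these fits. Basal forebrain and septum held only 49 spots in rNLS8 2 and were not tested; Cst7 had 14 and 6 UMI there in rNLS8 and 1 and 1 in Control.

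**Figure D2:**
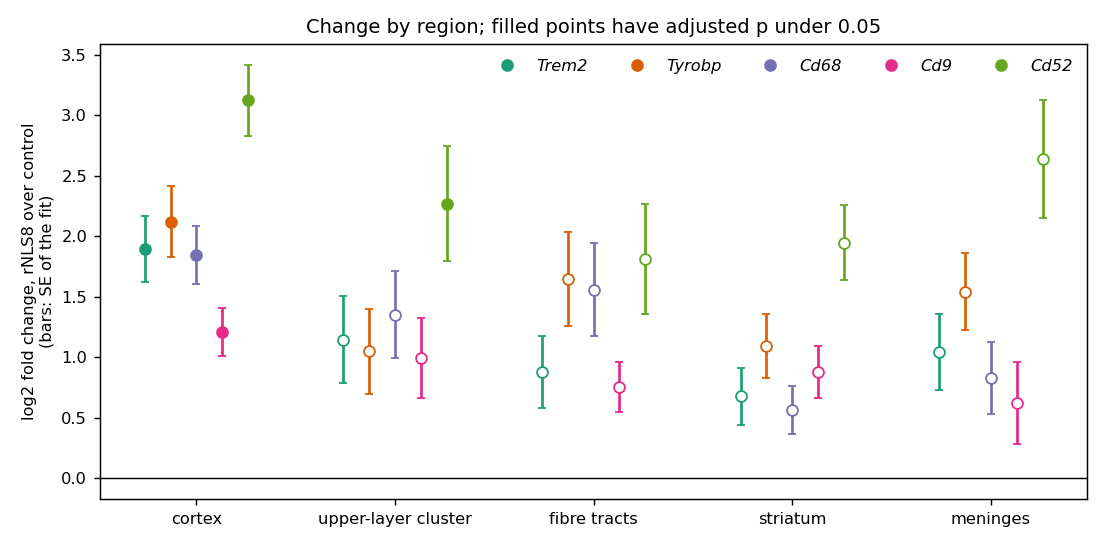
Log2 fold of rNLS8 over Control for 5 members by region, with bars for the SE of the fit. Filled points mark an adjusted p under 0.05: all 5 genes are filled in the cortex and Cd52 is also filled in the upper-layer cluster, and Trem2 and Cd68 stand lowest in the striatum.

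Whether the change differed between regions was tested on sums of both regions with section as a block. Between cortex and all other spots, 2 of 10 members had a larger change in the cortex, Trem2 by 0.95 on the log2 scale (SE 0.178, adjusted p = 0.0284) and Cd68 by 1.00 (SE 0.166, adjusted p = 0.0143). Of 12946 genes, 0.154% were called in this direction and 0.185% in the other. These other spots were a different mix in the 2 groups. A cluster of spots with few UMI, named rim, held 15.6% and 19.3% of kept spots in rNLS8 and 30.3% and 30.5% in Control. The part of this mix in the difference was not tested. Between cortex and striatum, a comparison added after the data were seen, Trem2 (1.08, SE 0.239, adjusted p = 0.0331), Tyrobp (0.95, SE 0.215, adjusted p = 0.0387) and Cd68 (1.17, SE 0.219, adjusted p = 0.0101) were called, against 0.229% of 12653 genes in this direction and 0.403% in the other. For Cst7 the difference between cortex and other spots was 0.66 (SE 0.799, adjusted p = 0.85), which its few Control UMI leave wide. Between cortex and fibre tracts 0 members were called by edgeR and 2 had an unadjusted p under 0.05, against 0.107% of 12175 genes called larger in the cortex and 0.361% smaller. Leaving out either Control section called 0 members in both comparisons, and with an unweighted neighbour graph only Cd68 was called in each. Between cortex and striatum, leaving out rNLS8 1 raised the count and leaving out rNLS8 2 lowered it, with no share of all genes beside these fits.

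Depth within the cortex was compared in 2 ways. The upper-layer cluster, with 192 and 156 spots in rNLS8 and 249 and 234 in Control, was the cluster led by upper-layer markers. The layer 6 cluster held 42 spots in rNLS8 1 and was not tested, 2 further cortical clusters held mostly 1 genotype (393 and 426 spots in rNLS8 against 23 and 74 in Control, and 14 and 3 against 376 and 253), and a cluster led by claustrum markers was not tested alone. In the upper-layer cluster 2 of 9 tested members were called higher, against 1.17% of 10023 genes called higher and 2.04% lower. Cd52 had 30 and 22 UMI in rNLS8 and 4 and 7 in Control (log2 fold 2.27, SE 0.477, edgeR adjusted p = 0.0218). Cst7 had 20 and 26 UMI in rNLS8 and 0 in both Control sections (edgeR adjusted p = 0.00426). With Control set at 3 counts its pooled ratio was 17.3, without rNLS8 counting error or spread. DESeq2 called 0 of the 2 members with an adjusted p. Leaving out either rNLS8 section lowered the count, and leaving out Control 2 raised it, with no share of all genes beside these fits.

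The cortex was also cut into 3 parts of equal size within each section, ranked by upper-layer minus deep-layer markers, after the layer clusters had been seen. Of the 7 upper-layer markers, 3 were themselves lower in rNLS8 cortex, which a rank within a section does not remove. The upper part had 5 of 9 tested members called higher, the middle part 6 of 10 and the deep part 5 of 9. Of all genes tested, 1.24% were called higher and 1.96% lower in the upper part, 1.29% and 2% in the middle part, and 0.43% and 0.614% in the deep part. Trem2 was called in each, with log2 folds of 1.43 (SE 0.312) in the upper, 2.13 (SE 0.344) in the middle and 2.03 (SE 0.262) in the deep part. Tyrobp had 1.27 (SE 0.283), 2.75 (SE 0.432) and 2.25 (SE 0.277) in the same order. Cd9 was called in the middle part (1.61, SE 0.274, adjusted p = 0.0177) and had an adjusted p of 0.0596 in the upper and 0.086 in the deep part.

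Cst7 was highest in the middle part in rNLS8 2 but level over the parts in rNLS8 1, at 15.6, 17.9 and 18.9 CPM from upper to deep. In the middle part it stood at 17.9 and 82.9 CPM in rNLS8 1 and 2 and 0.419 and 1.62 CPM in Control. In the deep part it had 67 and 102 UMI in rNLS8 and 0 in both Control sections. Its pooled ratio there was 53.7 with Control set at 3 counts, without rNLS8 counting error or spread. Tested directly with edgeR, 0 of 10 members were called for a difference between the upper and the deep part, with 3 at an unadjusted p under 0.05, against 0.0809% of 11119 genes called larger in the upper part and 0.324% smaller. Leaving out rNLS8 2 reduced the calls to 3 in the upper and 3 in the deep part.

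Single cortical spots were compared after thinning each to 3000 UMI, which left out 0 and 4 spots in rNLS8 and 19 and 9 in Control. A UMI of Trem2 was then found in 10.1% and 15.4% of rNLS8 spots and in 2.50% and 2.85% of Control spots. Tyrobp was found in 9.86% and 11.8% of rNLS8 spots and 2.29% and 3.93% of Control spots. Cst7 was found in 5.87% and 12.9% of rNLS8 spots, with Wilson 95% intervals of 4.44% to 7.72% and 10.8% to 15.3%, and in 1 spot of each Control section (0.104% and 0.136%). Without thinning, Cst7 was found in 15.5% and 28.4% of rNLS8 spots and 0.204% and 0.402% of Control spots. These intervals cover counting error only.

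For 9 of 10 members both rNLS8 shares lay above both Control shares, Lpl being the exception, where 36.8% of genes found in at least 1% of spots of a section did so. The exact two-sided permutation test of 2 sections against 2 has a smallest possible p of 0.33, which it gave for these 9. Of the 9 members other than Apoe, which nearly every spot held, at least 2 had a UMI in 15.9% and 26.3% of rNLS8 spots and in 2.81% and 4.2% of Control spots. At least 4 were found in 2.00% and 2.64% of rNLS8 spots and in 0 Control spots. Higher shares of single genes raise these values too. The values expected from the single shares were not computed, so these do not show that the members shared spots.

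Most spots with several Cst7 UMI were cortical in both rNLS8 sections. Of 241 and 446 spots with a Cst7 UMI in rNLS8, 51.5% and 55.6% were cortical, and of the 34 and 112 spots with at least 2 UMI, 82.4% and 81.2% were. Cortical spots were 26.4% and 32.9% of kept spots in rNLS8. They were also deeper, with a median of 11160 and 8899.5 UMI against 9776 and 6316 in all kept spots. These spots were not thinned, so depth enters the cortical shares. The highest spot held 6 and 10 UMI in rNLS8 and 1 and 2 in Control. Among array neighbours of a Cst7 spot at 3000 UMI, 10.9% and 27.3% also held Cst7 in rNLS8, which was 1.86 and 2.12 times its share among all cortical spots. For Cd52 that ratio was 2.49 and 1.31, and for Trem2 1.08 and 1.17.

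**Figure D3:**
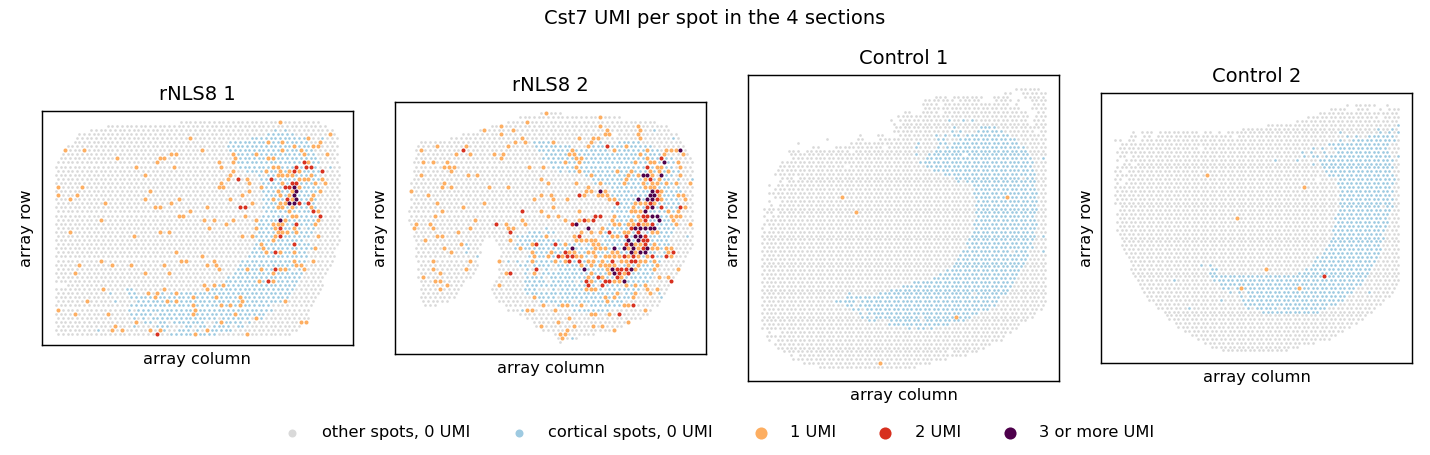
Cst7 UMI per spot on the array grid of the 4 sections, with cortical spots in blue and other spots in grey. Of the spots with 2 or more UMI, 82.4% in rNLS8 1 and 81.2% in rNLS8 2 are cortical, and Control sections hold 5 and 7 spots with a UMI, 1 of them with 2.

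Moran's I, a score of how far neighbouring spots share a gene's level, was deposited by the authors for each section. For Cst7 it was 0.138 and 0.180 in rNLS8 and -0.0007 and -0.0019 in Control. For Trem2 it was 0.0471 and 0.0703 in rNLS8 and 0.0028 and 0.0027 in Control, and for Cd52 0.0758 and 0.0791 in rNLS8 and -0.0034 and 0.0017 in Control. Apoe had 0.144 and 0.204 in rNLS8 and 0.169 and 0.237 in Control. The limma test over the 6321 genes found in at least 10% of spots of each section covered only Apoe and Axl among the members and called 0 of them, with 0 at an unadjusted p under 0.05 and no other tool run, while 0.0316% of genes were called higher. Neither of these 2 had both rNLS8 sections above both Control sections, as 5.33% of genes did. The other 8 were found in under 10% of spots in at least 1 section, so their values are given without a test.

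Pairs of the 3 leading genes shared spots more often than their shares alone give. In rNLS8 cortex at 3000 UMI, Trem2 and Tyrobp were found together in 15 and 26 spots, against 7.99 and 15.9 expected from the product of their shares. Trem2 and Cst7 shared 10 and 24 spots against 4.75 and 17.2 expected, and Tyrobp and Cst7 shared 8 and 23 against 4.64 and 13.3. In Control cortex Trem2 and Tyrobp shared 0 and 1 spots against 0.55 and 0.83 expected, too few to compare.

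Of 24 pairs of Trem2, Tyrobp or Cst7 with another member, 16 were above the expected number in both rNLS8 sections, and the median ratio was 1.42 and 1.36. Nearly every spot held Apoe, so its pairs cannot depart far from 1, and without them 15 of 21 pairs were above, with median ratios of 1.63 and 1.38. Trem2 with Cd68 had 18 and 34 spots against 9.51 and 17.9 expected. Cst7 with Cd52 had 9 and 19 against 3.64 and 11.8. At this depth the pairs with Lpl were not above the expected number in both sections: Trem2 with Lpl had 5 and 3 spots against 4.15 and 8.16. Cst7 with Cd9, Cst7 with Axl and Tyrobp with Lgals3 were not above it in both sections either. At 2000 UMI and without thinning, Tyrobp with Lpl and Cst7 with Lpl were above it in both. So were Cst7 with Cd9, Cst7 with Axl and Tyrobp with Lgals3. The pairs above it in both sections numbered 16 of 24 at 2000 UMI and 20 of 24 without thinning. Other pairs went the other way at 2000 UMI. Trem2 with Axl had ratios of 0.882 and 0.912 there. Trem2 with Cd9, Trem2 with Lgals3, Tyrobp with Cd9 and Cst7 with Lgals3 were also no longer above it in both. Spots of a section share tissue and probes, so these ratios are a description with no test.

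**Figure D4:**
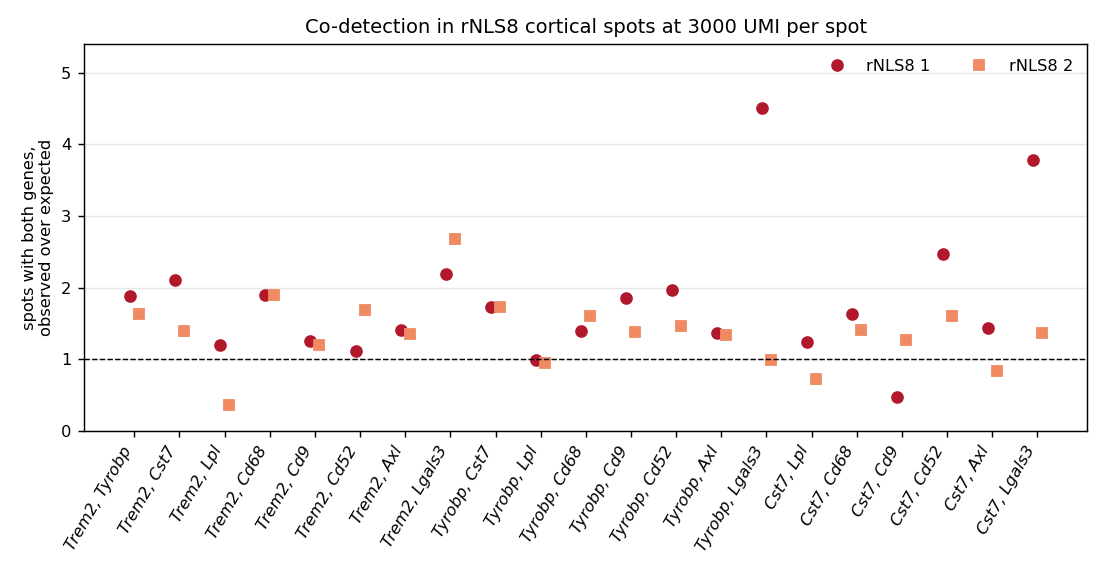
Spots holding both genes of a pair over the number expected from their separate shares, in rNLS8 cortical spots at 3000 UMI, with 1 point per section and a dashed line at 1. Pairs with Apoe are not drawn. Pairs with Lpl lie at or below 1 in at least 1 section, as do Cst7 with Cd9, Cst7 with Axl and Tyrobp with Lgals3. The highest points are pairs with Lgals3, found in only 9 and 17 spots.

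Of the 9 other members, 6 had more UMI per spot in cortical spots with Cst7 than in those without in both rNLS8 sections. The share of all genes that did so was not computed. Apoe was among the 6 at ratios of 1.12 and 1.1, and Lgals3 rested on 2 and 3 spots shared with Cst7. These are the same thinned spots as in the pairs with Cst7 above, so they add no separate evidence. In rNLS8 1, 47 Cst7 spots held 27.7 UMI of Trem2 per 100 spots, against 10.9 in the 754 spots without Cst7, and in rNLS8 2 112 such spots held 26.8 against 16.9 in 758 spots. For Tyrobp the ratio of the 2 kinds of spots was 1.85 and 2.28, and for Cd52 3.10 and 2.06. Of the 12 homeostatic genes, 9 had a ratio above 1 in both rNLS8 sections, such as Csf1r, the growth factor receptor of microglia (2.35 and 1.99). Fcrls had ratios of 0.76 and 1.21, and these examples were chosen after their values were seen. The 3 members whose ratio differed in direction were Cd9 (0.44 in rNLS8 1 and 1.18 in rNLS8 2), Axl (1.9 and 0.83) and Lpl (1.27 and 0.69).

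Across cortical spots, the genes most like each leading gene were ranked by the mean of Pearson's r over the 801 and 874 spots of the rNLS8 sections, on log-scaled levels, among 8271 genes with at least 100 UMI in each. For Trem2 they included C1qa, a subunit of complement C1q (mean r 0.347), Ctsb, cathepsin B (0.314), Mpeg1, the pore-forming perforin-2 of macrophages (0.298), and Ctsd (0.294). For Tyrobp they were C1qa (0.304), Ctsd (0.285), Mpeg1 (0.283), Gfap, the filament protein of astrocytes (0.278), and Cst3, cystatin C (0.277). For Cst7 they were Ctsb (0.359), B2m (0.349), C1qa (0.345), Gfap (0.341) and C1qc, another C1q subunit (0.328). Among members, Cst7 ranked 7 for Trem2 and Trem2 ranked 9 for Tyrobp, while Apoe ranked 354 for Trem2 and 96 for Cst7. In the Control sections C1qa reached 0.017 and 0.058 with Trem2. Trem2 had 63 and 98 UMI in Control cortex against 305 and 408 in rNLS8, too few to compare the groups. Spots of a section share depth and tissue, and these weak correlations carry no test.

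The summed homeostatic microglial genes correlated with Trem2 at 0.282 and 0.373 in rNLS8 and 0.046 and 0.049 in Control. Trem2 was found in only 59 of 980 and 81 of 747 Control spots, too few to compare the groups. With Cst7 the homeostatic sum correlated at 0.248 and 0.314 in rNLS8. With Cst7, the summed astrocyte markers correlated at 0.172 and 0.119, the oligodendrocyte markers at 0.059 and 0.228 and the neuronal markers at -0.054 and -0.133 in rNLS8.

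Per 100 UMI of the 12 homeostatic microglial genes, Trem2 had 8.46 and 10.1 UMI in rNLS8 cortex and 3.99 and 4.2 in Control cortex. Tyrobp had 8.66 and 9.74 in rNLS8 and 3.04 and 3.82 in Control, and Cst7 had 4.55 and 10.0 in rNLS8 and 0.127 and 0.172 in Control. Cd52 had 6.47 and 7.67 in rNLS8 and 1.52 and 1.2 in Control. For these 4 genes both rNLS8 sections lay above both Control sections on this scale.

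Apoe lay lower in rNLS8 on this scale, with 296 and 236 in rNLS8 and 408 and 373 in Control, and so did Lpl, with 4.36 and 3.75 in rNLS8 and 4.81 and 7.12 in Control. Axl overlapped, with 12.9 and 11.5 in rNLS8 and 16.6 and 12.7 in Control. Both rNLS8 sections lay above both Control sections for 7 of 10 members, where 2.87% of 12253 genes did so. The homeostatic sum in the denominator was itself higher in rNLS8. The exact permutation p of these 7 was 0.33, the smallest that 2 sections against 2 can give.

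**Figure D5:**
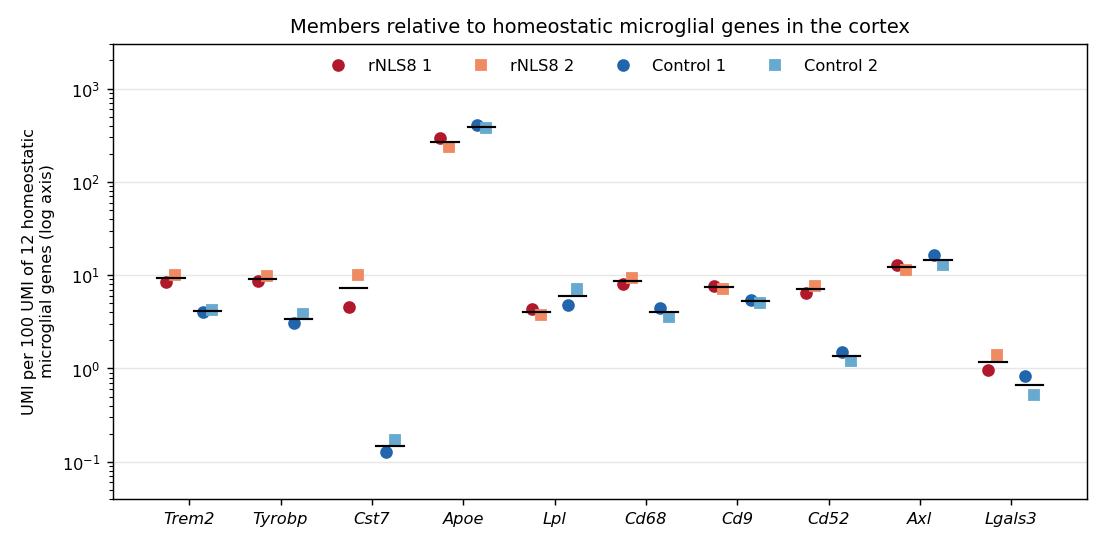
UMI of each member per 100 UMI of 12 homeostatic microglial genes in cortical spots, on a log axis, with 1 point per section and a bar at each group's mean (rNLS8 left of Control). Trem2, Tyrobp, Cst7, Cd68, Cd9, Cd52 and Lgals3 lie higher in both rNLS8 sections, Apoe and Lpl lie lower, and Axl overlaps.

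In whole sections edgeR called 0 of 10 members, with 7 at an unadjusted p under 0.05, whereas DESeq2 gave 6 calls. Of 13444 genes, edgeR called 0% higher, and DESeq2 called 1.54% of its 12177 higher. Trem2 stood at 25.2 and 38.7 CPM in rNLS8 and 11.8 and 13.7 CPM in Control (log2 fold 1.33, SE 0.25, adjusted p = 0.169), and Tyrobp at 28.1 and 42.5 CPM in rNLS8 and 8.04 and 13.1 CPM in Control (1.73, SE 0.313, adjusted p = 0.169). Cst7 had 287 and 631 UMI in rNLS8 and 5 and 8 in Control, a pooled rate ratio of 66.3 (exact 95% counting interval 38.5 to 125). Both rNLS8 sections lay above both Control sections for 8 of 10 members, against 26.9% of the genes tested. Whole sections also held regions in unlike shares, with a smaller rim share in rNLS8 than in Control as given above. Leaving out rNLS8 1, rNLS8 2 or Control 2 raised the count of calls, with no share of all genes beside these fits.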

How the data were processed

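Visium spatial counts of 5 µm formalin-fixed brain sections were analysed. The matrices deposited by the authors give unnormalised UMI counts. Per the file headers they came from Space Ranger 2.1.0, and per the labels the build was mm10. Moran's I is a score from the authors' deposited tables. The probe set is not given in the sources used here.

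Of 4992 array spots, 3033 and 2656 lay under tissue in rNLS8 and 3962 and 3343 in Control; a minimum of 500 UMI removed 2 and 1 in rNLS8 and 152 and 37 in Control. The chi-square per degree of freedom between the sections of a group was 18.5 in rNLS8 and 46.2 in Control, so spread exceeded counting error. Kept spots were clustered together (scanpy 1.11.5, leidenalg 0.10.2, 2000 variable genes without response genes, 30 principal components, 15 neighbours, resolution 1) on a neighbour graph. The graph was computed in double precision, which replaced single precision after results had been seen, because edge weights had changed with thread settings. Single precision first gave the same 6 cortical calls but other counts in the striatum, fibre tracts, meninges, the upper part, the comparison of cortex with other spots and the co-detected pairs. Clusters were named from at least 3 region markers. Clusters of cortex and of striatum split partly by genotype, so the union of each was compared.

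UMI were summed per section and region and tested with edgeR 4.0.16 (R 4.3.3) after trimmed-mean scaling and its default filter on low counts. DESeq2 1.42.0 was an alternative, limma 3.58.1 tested Moran's I, and scipy 1.17.1 gave exact permutation tests. The edgeR and limma steps were tested on simulated data. Other alternatives were no filter, library totals, each section left out, 1000 UMI per spot, Leiden resolutions 0.5 and 1.5, thinning to 2000 UMI and, added after seeing the data, an unweighted neighbour graph, a cortex drawn by marker sums and the upper, middle and deep parts of the cortex. Same-numbered sections share the labelled sex and no stated litter or batch, and their deviations correlated at -0.013 in whole sections and -0.036 in the cortex, so the number was no block in the main tests. Promoter windows are RefSeq's on GRCm38.p6.

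The text names all 10 members, for each related list the 3 called genes with the largest change in the cortex or, with none called, the gene with the smallest adjusted p, and the 5 genes most like each of Trem2, Tyrobp and Cst7, of which 1 for Trem2 is not reported here. The members and lists were chosen with earlier results of these data known.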

Additional observations from a re-analysis of the deposited data

Results flagged for a closer look

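The change between rNLS8 and Control differed between regions for 3 of the 10 members, by an interaction test. Of all genes tested, 0.154% were called larger in the cortex than in other spots and 0.229% larger than in the striatum. The other spots were a different mix of regions in the 2 groups. For Trem2 it was larger in the cortex by 0.95 than in other spots and by 1.08 than in the striatum, on the log2 scale. For Cd68 these differences were 1.0 and 1.17, and for Tyrobp the difference from the striatum was 0.95. None of them was called when either Control section was left out. With an unweighted neighbour graph only the Cd68 differences were called.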

How the results depend on the processing

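The 6 cortical calls became 5 with Leiden resolutions 0.5 and 1.5, 4 with an unweighted neighbour graph and 0 with library totals, and lay between 2 and 7 with each section left out. DESeq2, no filter, 1000 UMI per spot and a cortex drawn by marker sums gave 6. Outside the cortex the counts depended on cluster borders. In the striatum, 0 became 1 and 2 at resolutions 0.5 and 1.5. In the meninges, 1 became 2 with the unweighted graph. That graph also left 1 call between cortex and other spots and 1 between cortex and striatum. With no filter on low counts there were 6 calls in whole sections and 4 each in striatum, fibre tracts, meninges and upper-layer cluster. DESeq2 gave 6 in whole sections, 0 in the meninges and 0 in the upper-layer cluster. With each section left out, calls ranged over 0 to 5 in whole sections, 0 to 6 in striatum, 0 to 5 in fibre tracts, 0 to 3 in meninges, 1 to 6 in the upper-layer cluster, 3 to 7 in the upper and in the deep part, 0 to 3 between cortex and other spots and 0 to 5 between cortex and striatum. The replicate number as a block, which shares only a number, gave 3 calls in whole sections, 6 in the cortex, 0 in striatum, 1 in fibre tracts, 0 in meninges and 4 in the upper-layer cluster. Some values that were not called changed sign. Lpl ranged over -0.83 to 0.60 in whole sections and -0.29 to 0.62 in cortex with a section left out, and was -0.052 with marker sums. Between cortex and other spots Apoe ranged over -0.21 to 0.079 and Axl over -0.14 to 0.084, including 0.045. Between cortex and striatum Cst7 ranged over -2.12 to 1.49, Apoe over -0.20 to 0.026, Lpl over -0.14 to 0.33 and Axl over -0.017 to 0.098, including -0.0089, and Axl was -0.029 at resolution 0.5. The cause was not tested. Most counts of calls under other settings are given without the share of all genes called, so they have no background beside them. The 2 sections per group limit all tests, and few Control UMI limit those of Cst7.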
